A study of Mus musculus with 23 samples.

Results

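The levels of 5 genes of the MHC class I pathway were followed across mouse mammary tumours. Of these, B2m encodes the light chain of class I molecules, and H2-K1 and H2-D1 each encode a heavy chain that pairs with it. Psmb8 and Psme2 encode a catalytic subunit and an activator subunit of the immunoproteasome. The 5 were named by symbol, with earlier results of these data in view, out of 3826 genes on the panel. All 5 were on the panel, and all 5 were among the 2925 genes with enough counts to be tested. The design compares vehicle with abemaciclib, which blocks the cell cycle kinases CDK4 and CDK6, and so asks how these genes stood in tumours under the drug.

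The 23 libraries were 11 control tumours, from mice given vehicle, and 12 abemaciclib tumours, from mice given 90 mg/kg of the drug each day by gavage. Every mouse, controls included, had received doxycycline from 6 weeks of age to induce tumours. Mice were randomised once tumours were established, and tumour tissue was frozen after 12 doses. The transgene and promoter behind the induction, the mouse strain and the age at collection are not named in the labels. The labels number the tumours and name no animals, so p-values measure the spread between these tumours, some of which may share a mouse. Total RNA was read with an Ion AmpliSeq panel, which amplifies 1 short amplicon of about 110 bp per gene and counts its reads. Total counts were 3044380 to 4492736 in control tumours and 2756919 to 4990391 in abemaciclib tumours. Abemaciclib tumour 9 stood apart, with the smallest library, a fibroblast marker sum of 19516 CPM against at most 9653 CPM in any other tumour, and a housekeeping sum of 69807 CPM against at most 44368 CPM. Control tumour 7 had the smallest control library and a housekeeping sum of 16965 CPM, against at least 26148 CPM in any other tumour. Abemaciclib tumours 3 and 10 had basal epithelium marker sums of 12785 and 9060 CPM, against at most 5158 CPM in the others. The tissue label was checked against 10 markers of luminal mammary epithelium on the panel. Their summed level was 5976 to 8602 CPM, a count scaled to a common library size, in control tumours and 5324 to 11809 CPM in abemaciclib tumours, and of these markers Foxa1 was at 0 in some tumours.

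Class I molecules show peptides from inside the cell to CD8 T cells. A heavy chain folds with beta-2-microglobulin in the endoplasmic reticulum, and the pair leaves for the cell surface once it has bound a peptide. The peptides are cut from cytosolic proteins by proteasomes, pass into the endoplasmic reticulum through the TAP transporter and are fitted to the heavy chain by the loading complex. Interferons act, in part through IRF factors, on heavy chain, light chain and immunoproteasome genes, and the immunoproteasome replaces catalytic subunits of the standard proteasome with others that favour peptides class I can hold. The PA28 activator, built from the Psme1 and Psme2 products, opens the ends of the proteasome core.

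The promoters of the 3 chain genes are shown because their levels moved together across tumours and all 3 windows hold the same 4 motifs. The level of Psmb8, whose window holds none of the 4, moved with them too. Pearson's r of Psmb8 with the 3 was 0.713 to 0.823 in control and 0.850 to 0.923 in abemaciclib tumours. Whether the motifs bear on the levels was not tested. Each line is the 250 bases upstream of a RefSeq transcription start in GRCm38.p6, on the strand of the gene. Capitals mark matches to 4 motifs, searched on both strands. These were the interferon-response (IRF) element AANNGAAA, the canonical NF-kB site, the half-site TGACG of the cyclic AMP response element, known as the X2 box of class I promoters, and the inverted CCAAT or Y box ATTGG. The windows are B2m at chr2:122147437-122147686 on the plus strand, H2-K1 at chr17:34000348-34000597 on the minus strand and H2-D1 at chr17:35262844-35263093 on the plus strand. H2-K1 has 2 starts in the table, and the more upstream one was used.
B2m: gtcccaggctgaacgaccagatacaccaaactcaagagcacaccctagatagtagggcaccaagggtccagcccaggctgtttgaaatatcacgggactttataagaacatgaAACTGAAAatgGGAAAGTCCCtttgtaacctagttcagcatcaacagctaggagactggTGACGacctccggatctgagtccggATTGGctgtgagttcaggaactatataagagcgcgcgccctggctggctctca
H2-K1: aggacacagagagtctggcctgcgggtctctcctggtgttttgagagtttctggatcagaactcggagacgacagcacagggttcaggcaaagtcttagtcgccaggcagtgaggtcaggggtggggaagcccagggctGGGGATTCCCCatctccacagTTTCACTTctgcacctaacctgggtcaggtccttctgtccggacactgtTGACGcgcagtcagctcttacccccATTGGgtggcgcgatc
H2-D1: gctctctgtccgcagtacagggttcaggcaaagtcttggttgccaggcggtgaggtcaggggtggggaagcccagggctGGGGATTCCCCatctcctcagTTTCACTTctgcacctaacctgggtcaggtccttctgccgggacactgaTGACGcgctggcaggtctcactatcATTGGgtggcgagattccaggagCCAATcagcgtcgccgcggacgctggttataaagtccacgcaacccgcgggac
In all 3 windows the TGACG and ATTGG motifs were separated by 20 bases, and H2-D1 held a further ATTGG on the other strand. Among 32851 RefSeq promoter windows of the same length, 0.381% held both motifs with 15 to 25 bases between them and 0.0822% held all 4 motifs. Singly the motifs were common, with AANNGAAA in 21.3%, the NF-kB site in 7.25%, TGACG in 17.8% and ATTGG in 33.8% of windows. The IRF element began 137 bases upstream of the start in B2m, 90 bases upstream in H2-K1 and 150 bases upstream in H2-D1. The order differed too, with the IRF element upstream of the NF-kB site in B2m and downstream of it in both heavy chain genes. The Psmb8 window (chr17:34197945-34198194, plus strand) held none of the 4 motifs and the Psme2 window held TGACG alone. The Psmb8 and H2-D1 windows lie inside the gene spans given below, which start further upstream, at 34197721 and 35262730. Bases upstream of those 2 starts were not searched for these genes. The motifs were chosen after the sequences had been seen, and a match describes letters, not a bound site.

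B2m, on chromosome 2 (122147686 to 122153083, GRCm38), encodes beta-2-microglobulin, the light chain that every class I molecule needs for stable surface display. In control tumours its level was 1744 CPM at the lowest (tumour 8), 3670 CPM at the median and 10685 CPM at the highest (tumour 6). In abemaciclib tumours it was 3461 CPM at the lowest (tumour 2), 9661 CPM at the median and 20775 CPM at the highest (tumour 12). The groups overlapped, with 5 abemaciclib tumours above every control tumour and 11 of 12 above the control median, a share that 3.62% of all tested genes reached. The other 4 genes each had 10 of 12 above it, as did at least that many in 8.51% of tested genes. Control tumours had a mean of 4712 ± 2615 CPM (SD, n = 11) and abemaciclib tumours one of 10729 ± 5354 CPM (SD, n = 12). B2m lay 2.28-fold higher under abemaciclib, with a 95% interval of 1.49 to 3.47, and a log2 fold change of 1.19 (SE 0.295). Its p was 0.000461 before and 0.0709 after Benjamini-Hochberg adjustment over all tested genes (edgeR quasi-likelihood), so it did not pass 0.05. By DESeq2's Wald test the adjusted p was 0.00512, and by limma-voom with sample weights it was 0.0137. Control tumour 6 and abemaciclib tumours 2 and 10 each decided the edgeR call. Without them, in that order, the log2 fold change was 1.39, 1.27 and 1.17 and the edgeR adjusted p was 0.0323, 0.0294 and 0.0486.

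**Figure D1:**
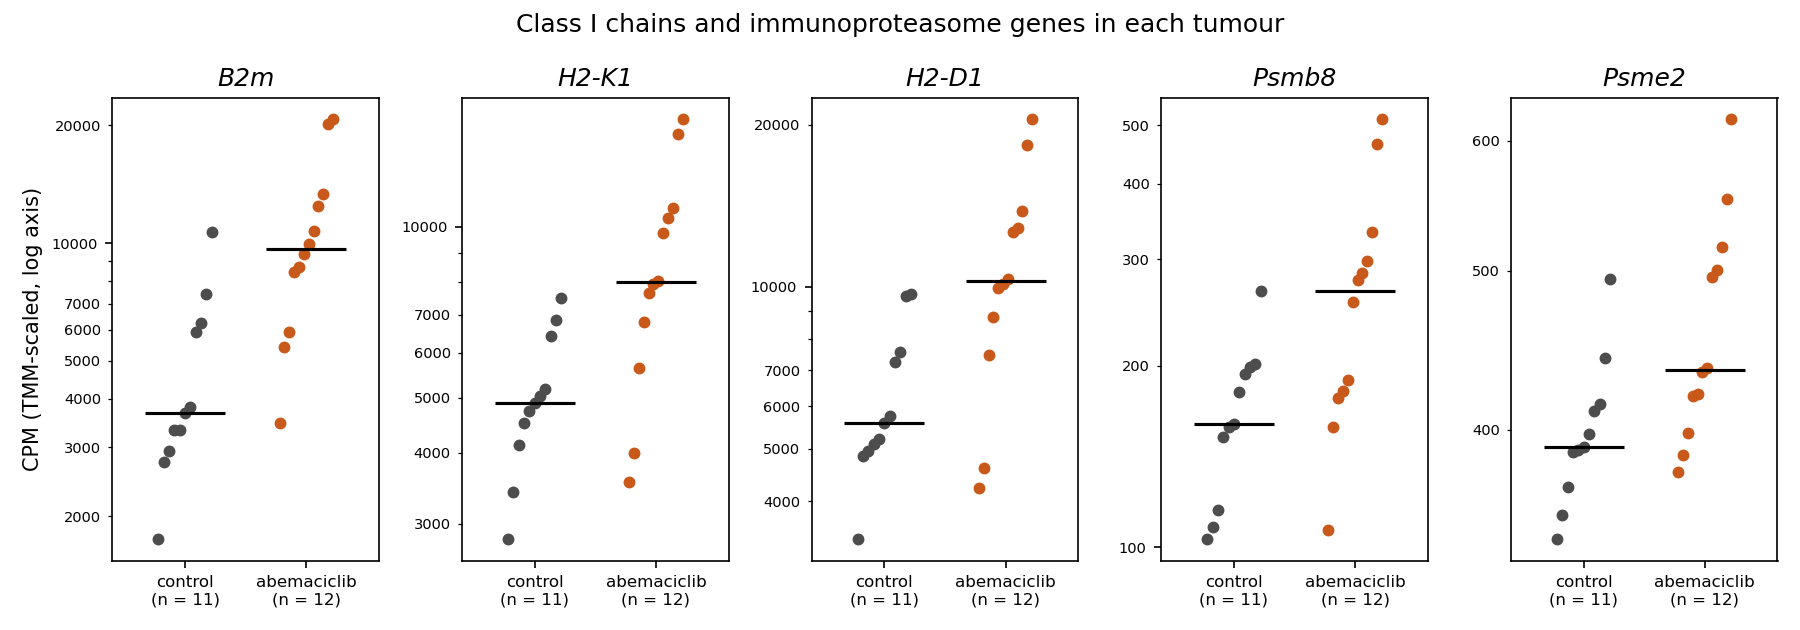
Level of each gene in each tumour, in CPM after TMM scaling on a log axis, with 11 control tumours in grey, 12 abemaciclib tumours in orange and the group median as a bar. Points within a group are sorted by level. Median B2m is 3670 CPM in control tumours and 9661 CPM with abemaciclib, the groups overlap for every gene, and the Psme2 axis spans a much narrower range than the other 4.

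H2-K1 and H2-D1 encode classical heavy chains, which hold the peptide and are read by T cell receptors. Both lie on chromosome 17, H2-K1 at 33996017 to 34000347 and H2-D1 at 35262730 to 35267499. H2-K1 was 2814, 4890 and 7482 CPM at the lowest, median and highest control tumour, and 3555, 7988 and 15489 CPM in abemaciclib tumours. H2-D1 was 3396, 5579 and 9682 CPM in control tumours, and 4240, 10231 and 20475 CPM in abemaciclib tumours. For both genes 8 abemaciclib tumours lay above every control tumour, while abemaciclib tumours 2 and 9 were the lowest pair of their group and sat inside the control range. H2-K1 lay 1.73-fold higher under abemaciclib (95% interval 1.27 to 2.36; log2 0.79, SE 0.217). H2-D1 lay 1.77-fold higher (95% interval 1.28 to 2.46; log2 0.83, SE 0.230). The edgeR adjusted p was 0.0912 for H2-K1 and 0.0956 for H2-D1, neither under 0.05. It was 0.0181 for both by DESeq2, and 0.0401 and 0.0411 by limma-voom. Without abemaciclib tumour 2 the edgeR adjusted p was 0.0369 for each heavy chain. The counts of the 3 chains made up 1.08 to 2.43% of all counts in control tumours and 1.17 to 5.12% in abemaciclib tumours.

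The panel holds 1 other gene of the chain list, Cd1d1, whose product is a class I-like molecule that presents lipids. Its log2 fold change was 0.43 (SE 0.168) and it passed none of the 3 tests after adjustment. The reference transcripts of H2-K1 (1619 bases) and H2-D1 (2102 bases) were 90.7% identical over 1581 aligned bases. Their longest identical run was 91 bases, shorter than the stated amplicon of about 110 bp, but where the amplicons lie is not stated in the labels. Class I heavy chains also vary between mouse strains, and the reference is C57BL/6J. How far either bears on the split of reads between both heavy chains was not tested.

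Psmb8, on chromosome 17 (34197721 to 34201454), encodes LMP7, the immunoproteasome subunit that takes the place of the chymotrypsin-like subunit encoded by Psmb5. It lies next to Tap1 and Psmb9, which were not on the panel. Its level was 103, 160.1 and 266 CPM at the lowest, median and highest control tumour and 107, 266 and 512 CPM in abemaciclib tumours. Thus 6 abemaciclib tumours lay above every control tumour, and the lowest, tumour 9, sat at the bottom of the control range. Psmb8 lay 1.62-fold higher (95% interval 1.19 to 2.20; log2 0.69, SE 0.217), with an adjusted p of 0.141 by edgeR, 0.0563 by DESeq2 and 0.145 by limma-voom.

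Psme2, on chromosome 14 (55587441 to 55591113), encodes the beta subunit of PA28. Its level was 343, 390.1 and 494 CPM at the lowest, median and highest control tumour and 377, 435 and 619 CPM in abemaciclib tumours. The highest was tumour 9, in which Psmb8 was lowest and the fibroblast and housekeeping sums were highest, and what part those play was not tested. Psme2 lay 1.16-fold higher (95% interval 1.02 to 1.31; log2 0.21, SE 0.0879), with an adjusted p of 0.261 by edgeR, 0.169 by DESeq2 and 0.207 by limma-voom. With library totals alone as the scaling its log2 fold change was 0.091 (SE 0.109), a setting that moved the median of all genes to -0.12. Its spread between tumours was the smallest of the 5. The SD on the log2 scale was 0.147 in control and 0.222 in abemaciclib tumours, against medians of 0.337 and 0.381 over all tested genes. For B2m it was 0.748 in both groups. The Psme2 counts are uncertain to the extent that reads were shared with the near-identical copy Psme2b on chromosome 11, which has its own row on the panel. The transcripts were 97.0% identical over 829 aligned bases with an identical run of 341 bases. Psme2b had 19 to 83 counts per tumour against 1188 to 2587 for Psme2, and its log2 fold change was 0.53 (SE 0.188, edgeR adjusted p = 0.190).

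By edgeR no gene passed an adjusted p of 0.05 in either direction, so 0 of the 5 did, against 0% of all tested genes. All 5 had an unadjusted edgeR p under 0.05 with the higher level under abemaciclib, as did 7.59% of all tested genes, though Psme2 lay within 1 SE of 0 when library totals alone set the scale. DESeq2 called B2m, H2-K1 and H2-D1 higher, against 1.61% of tested genes, and limma-voom called the same 3 higher, against 1.95%. B2m ranked 19, H2-K1 40, H2-D1 42, Psmb8 78 and Psme2 258 by p among the 2925 genes. Since the 5 were named with such results known, these counts describe them and support nothing further.

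Levels of B2m, H2-K1, H2-D1 and Psmb8 varied by over 4-fold among the abemaciclib tumours, and those of Psme2 by 1.64-fold. In abemaciclib tumours 5 and 12 all 5 genes lay above every control tumour. In 5 abemaciclib tumours at least 4 of the genes did so, and in 7 at least 3 did. In tumours 2 and 8 none of the 5 lay above the control range, and in tumour 2 all 5 lay below the control median. The ratio of highest to lowest tumour within the abemaciclib group was 6.00 for B2m, 4.36 for H2-K1, 4.83 for H2-D1, 4.79 for Psmb8 and 1.64 for Psme2. In control tumours it was 6.13, 2.66, 2.85, 2.59 and 1.44 in the same order.

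**Figure D2:**
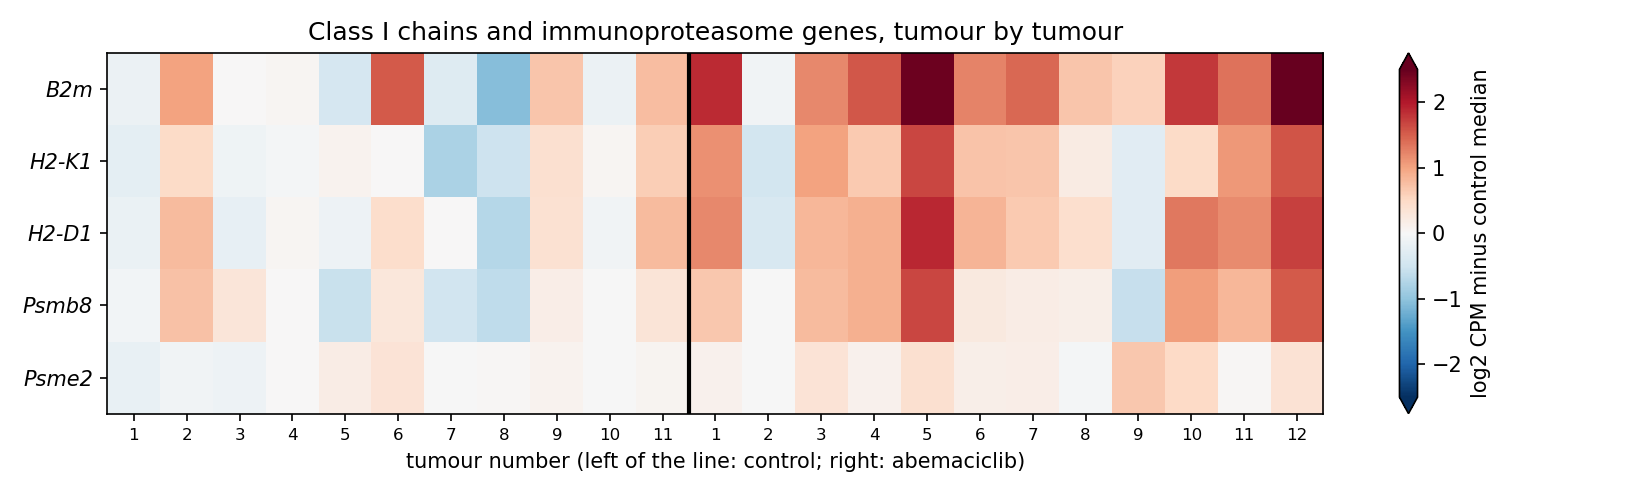
Level of the 5 genes in each of the 23 tumours as log2 CPM minus the control median of that gene, in colour, with control tumours left and abemaciclib tumours right. Colours end at the limits of the scale bar. Abemaciclib tumours 5 and 12 are high in all 5 genes, tumour 2 is below the control median in all 5, and the Psme2 row is pale throughout.

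The balance between the genes was compared as log2 ratios within each tumour, which do not depend on library scaling. Amplicons differ in efficiency, so a ratio is read only between groups, and 10 ratios were compared with permutation tests adjusted over the 10. B2m was higher relative to each of the other 4 genes in abemaciclib tumours. It also had the largest log2 fold change of the genes named, so these ratios in large part restate that order on the same counts. No share over other genes was computed for ratios. Since the genes were named with earlier results known, the p-values of the ratios describe them and support nothing further. The log2 ratio of B2m to H2-D1 averaged -0.53 ± 0.407 (SD, n = 11) among control tumours and -0.081 ± 0.225 (SD, n = 12) under abemaciclib. The difference was 0.45 (SE 0.139; two-sided permutation p = 0.00390, adjusted p = 0.0134), or 1.36-fold, and 12 of 12 abemaciclib tumours lay above the control median. For B2m to H2-K1 the difference was 0.49 (SE 0.193; permutation p = 0.0181, adjusted p = 0.0451), or 1.40-fold, again with 12 of 12 above the control median. The control range of this ratio reached 1.13 in tumour 6, above every abemaciclib tumour. Leaving out any 1 of 14 tumours (control 1, 3, 4, 5, 8, 9 or 10, abemaciclib 1, 4, 5, 6, 7, 10 or 12) took the adjusted permutation p of this ratio past 0.05, at most to 0.0884 with a difference of 0.41 without control tumour 8. B2m to Psmb8 differed by 0.59 (SE 0.178; adjusted permutation p = 0.0134; 11 of 12 above the control median) and B2m to Psme2 by 1.00 (SE 0.296; adjusted permutation p = 0.0134; 10 of 12).

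For the heavy chains against each other no difference was detected between the groups. The log2 ratio of H2-K1 to H2-D1 averaged -0.30 ± 0.306 (SD, n = 11) among control tumours and -0.34 ± 0.246 (SD, n = 12) under abemaciclib, a difference of -0.038 (SE 0.116; permutation p = 0.744). It stood apart in control tumour 7, at -0.99, and in abemaciclib tumour 10, at -1.02, where H2-K1 was low for the amount of H2-D1. H2-K1 to Psmb8 differed by 0.10 (SE 0.142; adjusted permutation p = 0.544) and H2-D1 to Psmb8 by 0.14 (SE 0.118; adjusted permutation p = 0.316). Against Psme2 the differences were 0.51 (SE 0.233) for H2-K1 and 0.55 (SE 0.241) for H2-D1, each with an adjusted permutation p of 0.0727, and 0.41 (SE 0.238) for Psmb8, with 0.149. Abemaciclib tumour 9 weighed on the last, which was 0.56 with an adjusted permutation p of 0.0163 without it. H2-D1 to Psme2 also passed without control tumour 2 (0.63), control tumour 11 (0.61), abemaciclib tumour 2 (0.64) or abemaciclib tumour 9 (0.69), with adjusted permutation p of 0.0149 to 0.0492. H2-K1 to Psme2 passed without abemaciclib tumour 2 (0.59) or 9 (0.64), with adjusted permutation p of 0.0335 and 0.0149.

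**Figure D3:**
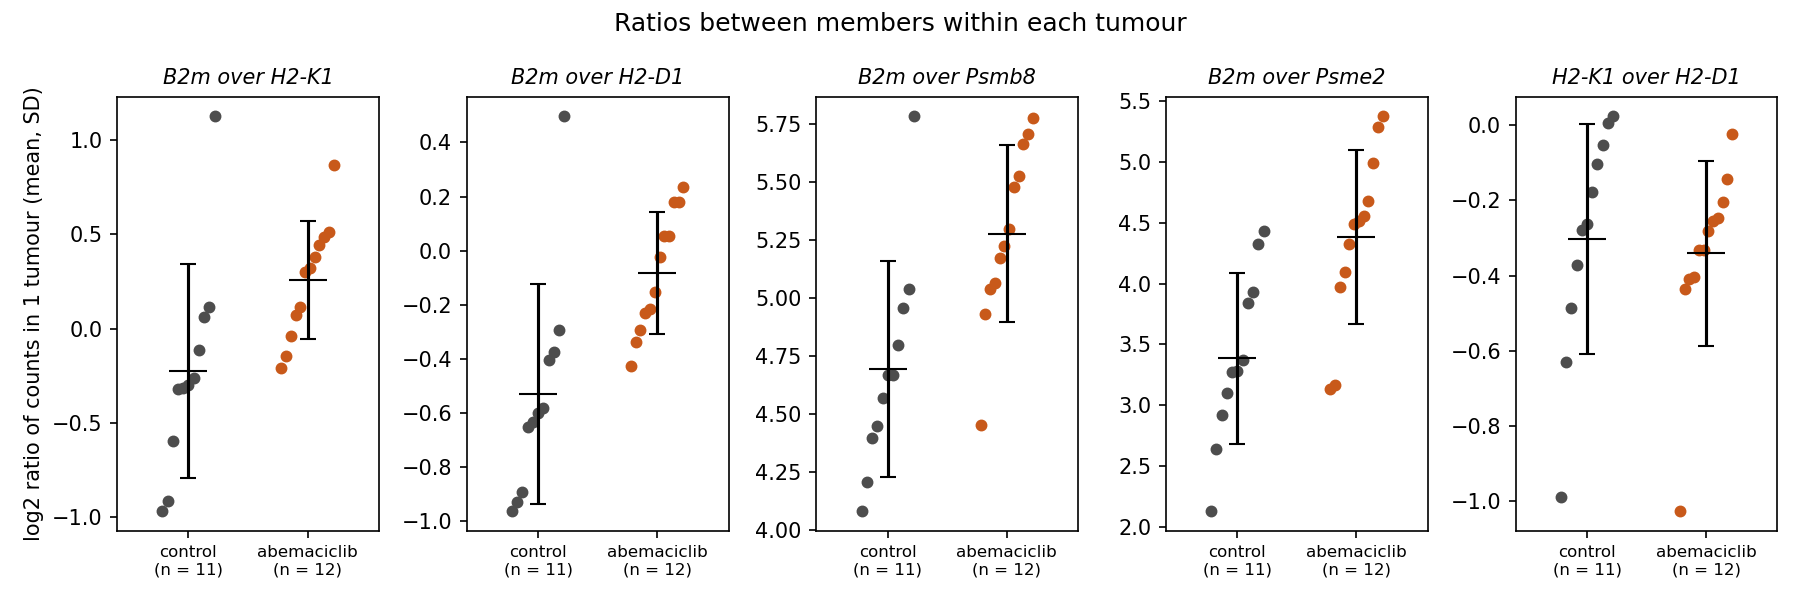
Within-tumour log2 ratio of 5 pairs of the genes, 1 point per tumour, with the mean and SD of 11 control (grey) and 12 abemaciclib (orange) tumours. B2m over each of the other 4 is higher in abemaciclib tumours, by 0.45 to 1.00, and H2-K1 over H2-D1 differs by -0.038.

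Among B2m, H2-K1, H2-D1 and Psmb8 the levels followed each other from tumour to tumour within each group. Correlations were taken on log2 CPM within a group, as 60 relations with permutation p-values adjusted over all 60. Tumours share the TMM scaling of their library, and counts of all genes come from 1 multiplexed reaction. Over the 6 pairs of these 4 genes, Pearson's r was 0.658 to 0.882 in control and 0.850 to 0.954 in abemaciclib tumours. Spearman's rho was 0.618 to 0.9 and 0.720 to 0.930. Of the 6 pairs, 5 had an adjusted p under 0.05 for r in control tumours and 6 did in abemaciclib tumours, while for rho 3 and 6 did. The closest pair was B2m with H2-D1, at r = 0.882 (permutation p = 0.00045, adjusted 0.00245) and rho = 0.827 (permutation p = 0.00247, adjusted 0.0115) in control tumours. In abemaciclib tumours it reached r = 0.954 (permutation p = 1e-05, the smallest possible, adjusted 0.0003) and rho = 0.930 (permutation p = 9e-05, adjusted 0.0017). Without the 2 tumours farthest from the median of B2m, its r was 0.922 in control and 0.923 in abemaciclib tumours. Over the 6 pairs, r without such a pair of tumours was 0.628 to 0.922 in control and 0.763 to 0.926 in abemaciclib tumours.

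Psme2 did not follow the other 4 in the same measure. Its r with them was -0.116 to 0.396 among control tumours and 0.0755 to 0.299 under abemaciclib, and rho was -0.0909 to 0.391 and 0.175 to 0.350. No adjusted permutation p for r was under 0.351 and none for rho was under 0.37. In abemaciclib tumours these values moved when the 2 tumours farthest from the median of the first gene were left out. The r of Psme2 with H2-D1 went from 0.147 to 0.645 and with H2-K1 from 0.0755 to 0.408 without tumours 2 and 9. With Psmb8 it went from 0.117 to 0.675 without tumours 5 and 9, and with B2m from 0.299 to 0.0334 without tumours 2 and 12.

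The genes most like each member over all 23 tumours were found by Spearman's rho after group means were removed, as a description with no test. B2m was most like H2-D1 (0.922), Herc6 (0.904) and Oas1a (0.882). H2-D1 was most like B2m (0.922), Herc6 (0.883) and Oas1a (0.880). Psmb8 was most like Cfb (0.909), the complement factor B gene, Oas1a (0.883) and B2m (0.849). Herc6 and Oas1a are interferon-induced genes, encoding an ISG15 ligase and an oligoadenylate synthetase. H2-K1 was most like H2-D1 (0.812), followed by Boc (0.771), a hedgehog co-receptor gene, and Plcl1 (0.768). For Psme2 the closest were Zfand2a (0.614), Icam1 (0.612) and Pcgf5 (0.599). Of the other 2924 tested genes, 35 had a rho over 0.7 with B2m, 24 with H2-K1, 21 with H2-D1, 18 with Psmb8 and 0 with Psme2, and the medians were near 0.

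The rest of the pathway was read from lists of known members. In the immunoproteasome list, 3 of 4 panel genes could be tested, all with a positive log2 fold change, as 51.1% of tested genes had, and none passed by any of the 3 tests after adjustment. Psmb10, the third catalytic immunosubunit, had a log2 fold change of 0.36 (SE 0.179). Psme1, the partner of Psme2 in PA28, had 0 to 8 counts per tumour and was not tested. In the standard proteasome list 4 genes were tested and their median log2 fold change was -0.0098, against 0.0055 over all tested genes. Psmd4, a ubiquitin receptor of the proteasome cap, had 0.0061 and Psmd9, an assembly chaperone, -0.14 (SE 0.0741). Psmb5, the counterpart of Psmb8, had 0 to 2 counts and was not tested.

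Of 8 tested genes for peptide transport, trimming and loading, 5 had a positive log2 fold change, against 51.1% of all tested genes. The list's median was 0.022 and none was called after adjustment. The loading chaperones Calr and Canx stood at -0.014 (SE 0.0974) and 0.031, and the disulfide isomerase Pdia3 at -0.0045. Sec61a1, of the protein-conducting channel, had the lowest p of the list at 0.26 (SE 0.0906). The TAP genes, Tapbp, Psmb9, Nlrc5 and Erap1 were not on the panel.

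Transcription and interferon signalling genes had 12 of 19 positive log2 fold changes, against 51.1% of all tested genes, with a median of 0.14. Stat2, a transcription factor of type I interferon signalling, lay at 0.54 (SE 0.199; adjusted p = 0.0243 by limma-voom and 0.21 by edgeR). Irf7 lay at 1.17 (SE 0.419) and Irf1, which acts on class I promoters, at 0.24 (SE 0.135). Rfx5 and Rfxank, of the complex that binds the X1 box of class I promoters, were at -0.090 and -0.26. The interferon genes themselves were nearly absent from the counts, with Ifna2, Ifna4, Ifnb1 and Ifng at 0 in 22, 21, 19 and 18 of the 23 tumours and at most 3 counts elsewhere. The class I receptor list held 3 tested genes. Lilrb4, a myeloid receptor gene on it, lay at 0.56 (SE 0.158; adjusted p = 0.105 by edgeR and 0.0169 by limma-voom), and whether its product binds class I was not tested. Klrc1 lay at 0.062 (SE 0.413). Cd8a, the T cell co-receptor for class I, lay at 0.042 on 1 to 47 counts per tumour.

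**Figure D4:**
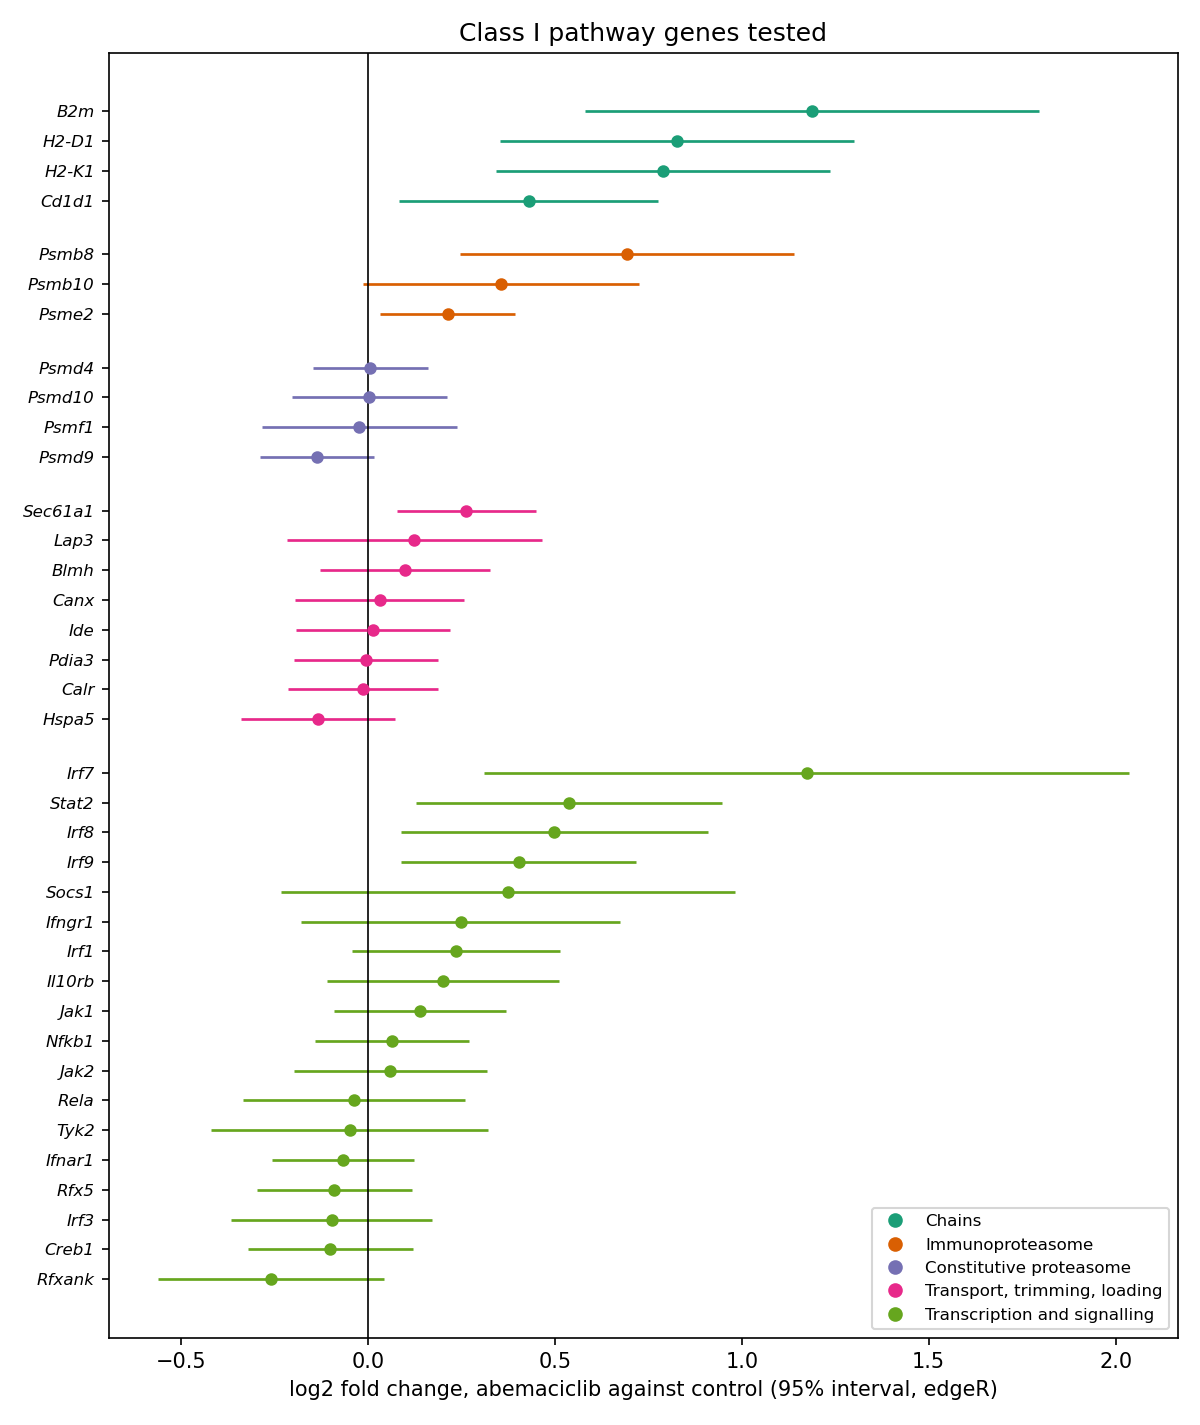
Log2 fold change of abemaciclib against control tumours with the edgeR 95% interval, for the 5 genes and other tested genes of the class I pathway lists, coloured by list. H2-K1, H2-D1 and B2m lie at 0.79 to 1.19, Psme2 at 0.21, genes of the standard proteasome at -0.14 to 0.0061 and genes of transport, trimming and loading at -0.13 to 0.26.

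Interferon-response levels moved with 4 of the 5 genes. All 8 tested genes of the type I and III response list were higher in abemaciclib tumours at an unadjusted edgeR p under 0.05, as were 7.59% of all tested genes, and their median log2 fold change was 0.73. After adjustment edgeR called none of the 8, DESeq2 called 1 and limma-voom 2, against 0%, 1.61% and 1.95% of all tested genes called higher. Their summed level was 724 to 1314 CPM among control tumours and 608 to 2516 CPM under abemaciclib, with 8 abemaciclib tumours above every control tumour and 2 (tumours 2 and 9) below every control tumour. Within control tumours r of this sum was 0.883 with B2m, 0.746 with H2-K1, 0.829 with H2-D1 and 0.742 with Psmb8. Within abemaciclib tumours it was 0.918, 0.878, 0.973 and 0.912. All 8 relations had an adjusted permutation p under 0.05 for r and for rho, the latter at 0.727 to 0.827 and 0.755 to 0.937. Without the 2 farthest tumours r was 0.587 to 0.853 and 0.681 to 0.927. With Psme2, r was 0.313 in control and 0.131 in abemaciclib tumours (adjusted permutation p 0.481 and 0.783), and 0.759 in the latter without tumours 2 and 9. Of 11 tested genes of the type II response list 10 were positive, against 51.1% of all tested genes, with a median of 0.64. DESeq2 and limma-voom each called 3 of them higher, against 1.61% and 1.95% of all tested genes. The chemokine gene Cxcl9 led by edgeR's p at 3.16 (SE 0.834), or 1.73 without abemaciclib tumour 10, and passed by neither (adjusted p = 0.115 by DESeq2 and 0.366 by limma-voom). The 5 tested genes of the class II pathway all had positive values, against 51.1% of all tested genes, and a median of 0.44. DESeq2 and limma-voom each called 2 of them higher, against 1.61% and 1.95% of all tested genes. The protease gene Ctss, called by both, was at 0.59 (SE 0.158).

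**Figure D5:**
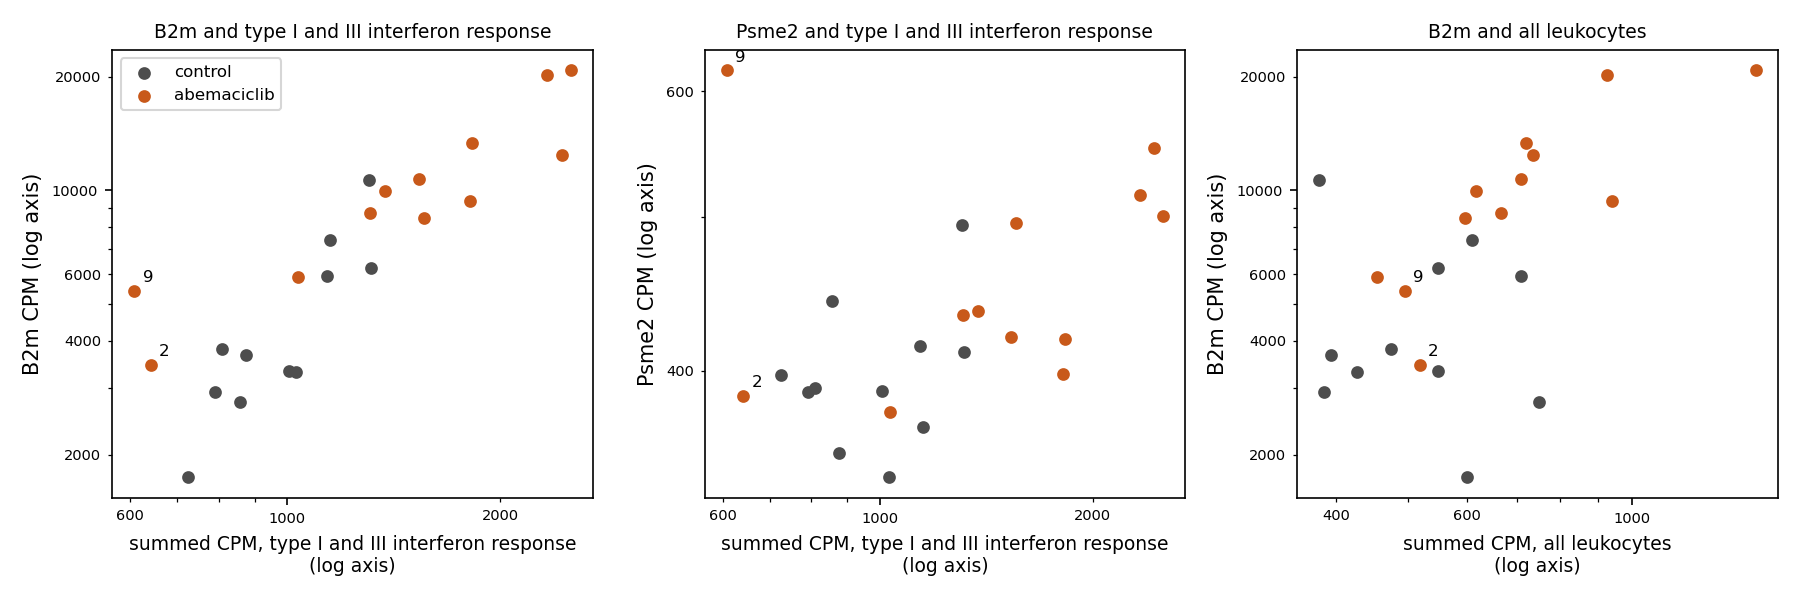
Level of B2m and Psme2 against the summed level of the type I and III interferon response list, and of B2m against the sum of the pan-leukocyte markers, 1 point per tumour in CPM on log axes, with 11 control (grey) and 12 abemaciclib (orange) tumours. B2m follows the interferon sum in both groups and the leukocyte sum in abemaciclib tumours, at r = 0.827 against -0.133 in control tumours.

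Leukocytes carry high levels of class I, so marker lists are given beside the result. In bulk tissue fewer cells of a type and less RNA per cell cannot be told apart. All 4 pan-leukocyte markers on the panel had a positive log2 fold change (median 0.43) and none was at 0 in any tumour. Their sum was 380 to 751 CPM among control tumours and 454 to 1466 CPM under abemaciclib, and the lowest p was that of Itgb2, the beta-2 integrin gene, at 0.71 (SE 0.174; adjusted p = 0.00860 by DESeq2 and 0.0202 by limma-voom). All 7 macrophage markers were positive (median 0.47), with a sum of 693 to 1134 CPM among control tumours and 1033 to 1926 CPM under abemaciclib, where 12 of 12 lay above the control median, and the scavenger receptor gene Msr1 led by p at 0.73 (SE 0.168; adjusted p = 0.00512 by DESeq2 and 0.0187 by limma-voom). Both tools called 3 of the 7 macrophage markers, 2 of 2 tested dendritic cell markers and 1 of the 4 pan-leukocyte markers higher, and edgeR called none. Over all tested genes 51.1% had a positive log2 fold change, and DESeq2 called 1.61% and limma-voom 1.95% higher. Dendritic cell markers summed to 43.6 to 96.2 CPM and 63.7 to 168 CPM, with Flt3, Xcr1 and Ccr7 at 0 in some tumours and the endocytic receptor gene Ly75 at 0.79 (SE 0.186; adjusted p = 0.00512 by DESeq2 and 0.0137 by limma-voom). T cell markers summed to 18.1 to 75.8 CPM and 22.7 to 106 CPM, natural killer cell markers to 4.91 to 24.9 CPM and 3.37 to 18.6 CPM, and B cell markers to 2.11 to 16.5 CPM and 8.05 to 24.8 CPM. These 3 sums lay above the control median in 6, 4 and 10 of 12 abemaciclib tumours. Of tested markers, 4 of 5 for T cells were positive (median 0.31), 2 of 2 for natural killer cells negative (median -0.38) and 1 of 1 for B cells positive (0.58). None of these was called by any of the 3 tests. The part of these cells in the higher class I levels was not tested.

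The leukocyte sum followed B2m, H2-K1, H2-D1 and Psmb8 in abemaciclib tumours, at r = 0.805 to 0.827 and rho = 0.762 to 0.909, with adjusted permutation p of 0.00351 to 0.00484 for r. Without the 2 tumours farthest from the median of the sum, r was 0.789 to 0.894. In control tumours r was -0.133 for B2m, 0.503 for H2-K1, 0.0793 for H2-D1 and -0.124 for Psmb8, none with an adjusted permutation p under 0.05. The difference in r between the groups was tested by permuting group labels, chosen after the data had been seen and adjusted over the 5 genes. It was 0.74 for H2-D1 and 0.95 for Psmb8, each with an adjusted permutation p of 0.0311. It was 0.96 for B2m (adjusted permutation p = 0.0549), 0.30 for H2-K1 (0.131) and -0.0049 for Psme2 (0.993). Group means were taken off before permuting, and only the leukocyte sum was tested in this way. Such a test takes the spread of both groups as alike. The SD on the log2 scale was 0.456 in control and 0.693 in abemaciclib tumours for H2-D1, and 0.424 and 0.654 for Psmb8. Since the contrast was picked from these data, its p-values describe it and support nothing further. For Psme2 r was 0.172 in control and 0.167 in abemaciclib tumours, but 0.825 without control tumours 6 and 7 and -0.184 without abemaciclib tumours 8 and 12, so its difference rests on those tumours. With the macrophage sum r was 0.521 to 0.624 for the same 4 genes in abemaciclib tumours, none past the threshold. In control tumours H2-K1 alone passed, at r = 0.793 (adjusted permutation p = 0.0123).

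Cell cycle genes lay lower in abemaciclib tumours. The 24 tested G2/M genes had a median log2 fold change of -1.03, and after adjustment limma-voom called all 24 lower (2.39% of tested genes), DESeq2 2 (0.444%) and edgeR none. The lowest p was that of the condensin gene Smc4, at -0.84 (SE 0.181). Within groups, r of their sum with B2m, H2-K1, H2-D1 and Psmb8 was -0.674 to -0.405 in control and -0.533 to -0.141 in abemaciclib tumours. No relation of the G2/M sum with the 5 genes had an adjusted permutation p under 0.05, and the lowest was 0.0530 for B2m in control tumours. Without the 2 tumours farthest from the median of the sum, r with the same 4 genes was -0.937 to -0.530 in control tumours. The tumours left out there were 1 and 8, and with B2m r went from -0.674 to -0.937. In abemaciclib tumours it was -0.413 to -0.189 over the 4 genes. The r values without those tumours were not tested. The part of proliferation in the class I levels was not tested.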

How the data were processed

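Amplicon reads of total RNA from 23 tumours were analysed. The authors deposited raw counts per gene on an Ion AmpliSeq panel, with mm10 as the build in the submitters' processing notes. The aligner and the counting tool were not given in the sources used here. The reads carry no molecular identifiers, so counts cover amplified copies. Groups came from the sample labels. The members, lists and alternatives were chosen with earlier results of these data known. Named genes were the 5 members, tested genes of the pathway lists, the gene with the lowest p of each other list and the 3 genes most like each member.

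Genes passing edgeR's filterByExpr (2925 of 3826) were tested with edgeR 4.0.16 (TMM scaling, quasi-likelihood F test, limma 3.58.1), with Benjamini-Hochberg adjustment at 0.05 over all of them. CPM are counts over the TMM-scaled library size. Ratios used a prior count of 0.5 and log2 CPM a prior count of 2. Permutation tests were two-sided with 100000 resamples (SciPy 1.17.1). Alternatives were DESeq2 1.42.0, limma-voom with sample weights, other scalings and filters, a replicate block and leaving out each tumour. Simulated data had 200 changed genes among the 2925 of this comparison. There edgeR recovered 41 of 67 at 1.5-fold, 57 of 67 at 2-fold and 66 of 66 at 4-fold, with 6 of 2725 unchanged genes called. Each simulated gene varied independently of the others, while genes in these tumours moved together. The simulation is therefore a check of the code and does not give the power in the real tumours. Gene positions are from GENCODE M21 and promoters from RefSeq, where all 5 members matched. A gene of the signalling and interferon lists is counted in them but not reported here.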

Additional observations from a re-analysis of the deposited data

How the results depend on the processing

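The 5 log2 fold changes kept a positive sign under all 37 alternatives. Adjusted p was under 0.05 in 6 of them for B2m, in 3 each for H2-K1 and H2-D1, and in 0 for Psmb8 and Psme2. The number of genes called was 0 by edgeR, 1 with library totals alone, 60 by DESeq2, 127 by limma-voom, 93 without both abemaciclib tumours 3 and 10, 2 with abemaciclib tumour 9 and control tumour 8 left out, and 0 to 47 without 1 tumour. By DESeq2 B2m was 1.20, H2-K1 0.80 and H2-D1 0.84, and by limma-voom 1.10, 0.66 and 0.70. B2m was 1.19 without both tumours 3 and 10 (adjusted p = 0.0357). Without 1 tumour, B2m was 1.06 to 1.39, H2-K1 0.68 to 0.87, H2-D1 0.71 to 0.91, Psmb8 0.57 to 0.78 and Psme2 0.17 to 0.25. The ratio of B2m to H2-K1 was 0.41 to 0.62, to H2-D1 0.40 to 0.55, to Psmb8 0.52 to 0.69 and to Psme2 0.87 to 1.11. H2-D1 to Psme2 was 0.47 to 0.69, H2-K1 to Psme2 0.43 to 0.64, Psmb8 to Psme2 0.33 to 0.56 and H2-K1 to H2-D1 -0.11 to 0.024. As a difference of medians, H2-D1 to Psme2 was 0.73 and Psmb8 to Psme2 0.50 (adjusted permutation p = 0.0448 each), and B2m to H2-K1 was 0.47 without both tumours 3 and 10 (adjusted 0.0575). Values near 0 changed sign. Pdia3 was 0.0035 with DESeq2 size factors, 0.0022 with housekeeping scaling, 0.0036 by DESeq2 and 0.0021 by limma-voom. Canx was -0.094 with library totals and -0.0059 with upper quartile scaling. Ide was -0.11, -0.023, -0.0049 and -0.077 with library totals, upper quartile, housekeeping scaling and limma-voom, -0.0054 without tumours 3 and 10 and -0.055 with abemaciclib tumour 9 and control tumour 8 left out, where Calr was 0.0095. Blmh was -0.014 with library totals. Without 1 tumour, Calr was -0.058 to 0.030, Pdia3 -0.044 to 0.035, Ide -0.045 to 0.047 and Pcgf5 -0.074 to 0.0093. The causes of these changes were not tested. A replicate block could use only numbers present in both groups, so that fit left out abemaciclib tumour 12. With the block, B2m was 1.12 (adjusted p = 0.170), H2-K1 0.65 (0.241), H2-D1 0.69 (0.263), Psmb8 0.53 (0.339) and Psme2 0.19 (0.429). In that fit 0 genes were called. Without tumour 12 and with no block, B2m was 1.06. Whether the numbers pair the tumours could not be decided. Of 11 same-numbered pairs, 5 had a correlation over 0.1 (range -0.428 to 0.454), and 2 of 11 correlated best with their own number. These values were not set against those of differently numbered pairs.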
